A study of Mus musculus with 12 samples.

Results

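Nek7, its relatives Nek6 and Nek9, and 7 genes that lie near Nek7 on mouse chromosome 1 (Ptprc, Atp6v1g3, Lhx9, Dennd1b, Crb1, Zbtb41 and Aspm) were followed in RNA-Seq of mouse neural progenitor cells (mNPCs). They are 10 of the 18911 genes in the deposited counts. Nek7 was picked from these same libraries because its counts were low in Kmt2a+/+ mNPCs and in no other genotype, so its levels against Kmt2a+/+ are given as a description, with no test. Nek6 and Nek9 were taken as the kinases that act with Nek7, and the 7 neighbors by their position within about 2 Mb of it.

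The mNPCs were grown from hippocampi of newborn (P0) C57BL/6J pups and their poly(A) RNA was sequenced in 3 libraries for each of 4 genotypes. Kmt2a+/+ cells carry no engineered allele. Kmt2a+/LSL cells carry a lox-STOP-lox (LSL) cassette in intron 1 of 1 Kmt2a copy, which blocks full-length Kmt2a from that copy and serves as a model of Wiedemann-Steiner syndrome. The LSL allele comes from 1 founder line. Nes-Cre+/- Kmt2a+/+ cells carry a Cre transgene driven by nestin regulatory sequences and no cassette, and Nes-Cre+/- Kmt2a+/LSL cells carry both, so that Cre can remove the cassette in cells of the neural lineage. No label ties a library to a litter or a batch, or says that replicates came from separate pups, so the p-values measure the spread between these libraries.

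NEK kinases are relatives of the fungal mitotic kinase NIMA. In dividing cells NEK9 binds and activates NEK6 and NEK7, 2 short and closely related kinases that help to separate the centrosomes and build the spindle. NEK7 is also known for a role outside mitosis, as a partner that NLRP3 needs to assemble an inflammasome in macrophages. KMT2A, the enzyme that the LSL allele removes from 1 copy, methylates histone H3 at lysine 4 and has a CXXC domain that binds unmethylated CpG DNA.

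The Kmt2a counts matched the labels. Normalised counts (counts divided by TMM-scaled library sizes) were 6943 ± 238 for Kmt2a+/+, 3981 ± 9.39 for Kmt2a+/LSL, 7124 ± 327 for Nes-Cre+/- Kmt2a+/+ and 6518 ± 305 for Nes-Cre+/- Kmt2a+/LSL (mean ± SD, n = 3 throughout). The edgeR test used below did not call Kmt2a in Kmt2a+/LSL against Kmt2a+/+ (log2 difference -0.80, adjusted p = 0.281). DESeq2 (adjusted p = 6.1e-18) and limma-voom (adjusted p = 0.018) did. Nor did edgeR call it in Nes-Cre+/- Kmt2a+/LSL against Kmt2a+/LSL (log2 difference 0.71). A difference that does not pass with edgeR is therefore not shown to be absent. Library totals lay between 18280008 and 28596919. All 11 neural stem cell markers were measured in every genotype, with Nes at 7578 to 18156 and Sox2 at 5408 to 9281 normalised counts. The astrocyte list had summed levels of 33255 to 110902 and the oligodendrocyte lineage list 28734 to 133192. Most of the latter was Olig1 (16889 to 99275) and Olig2 (9463 to 26746), while the myelin genes Mbp, at 25.7 to 57.8, and Mog, at 0 to 6.82, were low. Kmt2a+/+ replicate 1 stood apart from the rest, with a median correlation to its own group of 0.903 (log2 counts across genes, which are not independent replicates), against 0.939 to 0.943 for the other Kmt2a+/+ libraries and 0.967 to 0.984 for the other genotypes. It held the highest value of the 12 libraries for 30.0% of the 17076 genes tested. Fold changes of the members from Kmt2a+/+ (Ptprc aside) and counts over gene lists are therefore also given without it.

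Nek7 (ENSMUSG00000026393) lies on the minus strand of chromosome 1 at chr1:138482875-138620141 in GRCm38. Its promoter window is shown because the gene under study, Kmt2a, encodes a protein that binds CpG DNA, and Nek6 is set beside it as the closest relative. Each window runs from 250 bases before to 50 bases after the start that RefSeq gives in GRCm38, is written 5′ to 3′ on the gene's strand, and has every CG in capitals (a CG reads the same on both strands). The Nek7 window is chr1:138619708-138620007, minus strand, and the Nek6 window is chr2:38511447-38511746, plus strand, the first of 2 listed. The RefSeq starts can differ from the outer ends of the genes given in this text, which are those of GENCODE. The windows of Nek7, Ptprc, Lhx9 and Dennd1b lie wholly inside these gene bounds.
Nek7 promoter: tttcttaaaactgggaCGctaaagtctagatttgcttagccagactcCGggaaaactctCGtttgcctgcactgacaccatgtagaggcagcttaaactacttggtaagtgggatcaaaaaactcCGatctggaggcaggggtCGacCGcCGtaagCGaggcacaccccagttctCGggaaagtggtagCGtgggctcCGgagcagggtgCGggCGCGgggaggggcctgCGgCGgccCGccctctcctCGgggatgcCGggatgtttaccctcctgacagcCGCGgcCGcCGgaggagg
Nek6 promoter: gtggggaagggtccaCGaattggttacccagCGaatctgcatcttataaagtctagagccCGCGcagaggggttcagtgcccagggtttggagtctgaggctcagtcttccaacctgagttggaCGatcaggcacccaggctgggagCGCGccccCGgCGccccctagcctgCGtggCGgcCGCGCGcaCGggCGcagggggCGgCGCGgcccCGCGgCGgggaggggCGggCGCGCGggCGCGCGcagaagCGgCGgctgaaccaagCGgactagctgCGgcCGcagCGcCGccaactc
The Nek7 window held 23 CG and the Nek6 window 36, while the median over 27025 genes was 7. Of all windows of this length, 94.2% held at least 1 CG. A total of 78.4% of genes had fewer CG than Nek7 and 94.0% fewer than Nek6. Among the neighbors the count ran from 2 at Atp6v1g3, 4 at Ptprc, 4 at Crb1 and 6 at Lhx9 to 19 at Aspm, 36 at Dennd1b and 45 at Zbtb41, and Nek9 had 25. By these RefSeq starts, windows with many CG and windows with few thus lie side by side around Nek7.

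Nek7 was lowest in the Kmt2a+/+ libraries, at 200.9, 193.3 and 180.1 normalised counts. The Kmt2a+/LSL libraries held 413.9, 448.5 and 501.7. In Nes-Cre+/- Kmt2a+/+ the values were 530.7, 672.0 and 553.9. The Nes-Cre+/- Kmt2a+/LSL libraries reached 919.8, 612.9 and 743.8. Every Kmt2a+/+ library was thus below the lowest of the other 9, and the 3 Kmt2a+/+ libraries lay close together, with a coefficient of variation of 5.51%, against 9.72%, 12.9% and 20.3% within the other genotypes in the same order. The group means were 191 ± 10.5, 455 ± 44.2, 586 ± 75.8 and 759 ± 154. Relative to Kmt2a+/+, the fitted level was 2.37-fold for Kmt2a+/LSL, 3.06-fold for Nes-Cre+/- Kmt2a+/+ and 3.96-fold for Nes-Cre+/- Kmt2a+/LSL. The corresponding log2 differences were 1.25 (SE 0.20), 1.61 (SE 0.20) and 1.99 (SE 0.20), and all 3 comparisons share the same Kmt2a+/+ libraries. They changed little without Kmt2a+/+ replicate 1, at 1.28, 1.64 and 2.01. Kmt2a itself was low in Kmt2a+/LSL alone, so the order of the genotypes by Nek7 was not their order by Kmt2a. In bulk RNA, a smaller share of cells that express a gene and less of its RNA per cell cannot be told apart.

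**Figure D1:**
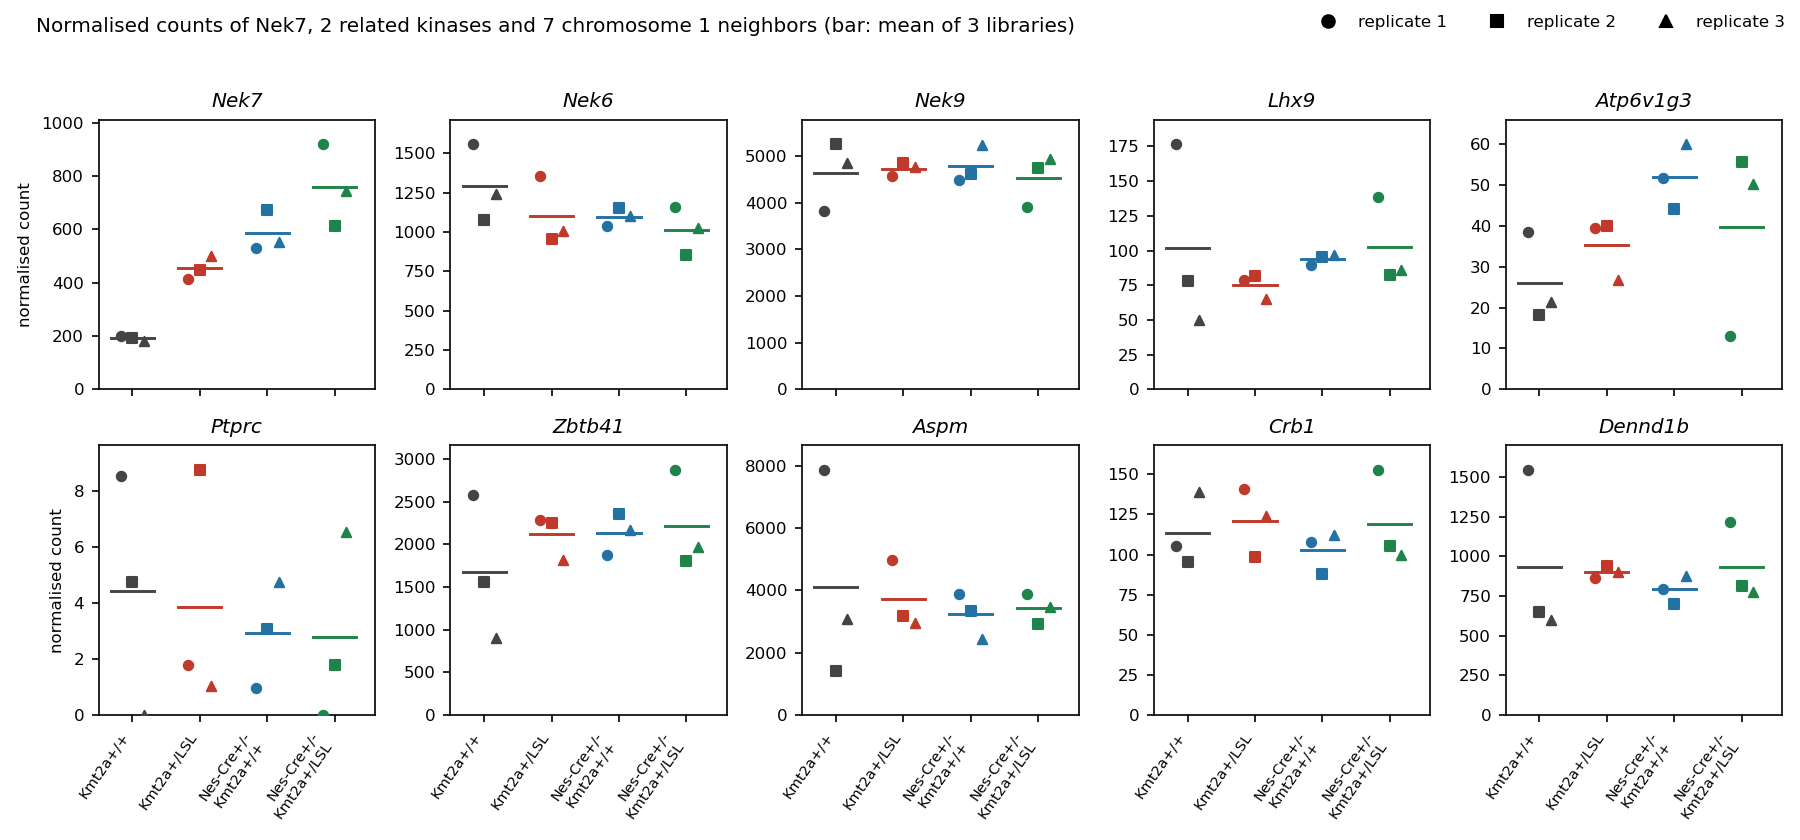
Normalised counts (y axis, 1 scale per panel, starting at 0) of the 10 genes in the 12 libraries, grouped by genotype (x axis). Points are libraries, with the symbol giving the replicate number, and bars are means of 3. Nek7 sits at 180.1 to 200.9 in Kmt2a+/+ and at 413.9 to 919.8 elsewhere, while Kmt2a+/+ replicate 1 gives the highest point for Nek6, Lhx9, Aspm and Dennd1b.

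The values that the pick used can be set against all other genes, as a description. Kmt2a+/+ libraries lay below all 9 others for 48 of the 17076 genes tested (0.281%). Among 11677 genes with a mean count of at least 50, 28 had this order, and Nek7 had the widest gap of them. Its lowest count outside Kmt2a+/+ was 2.06 times its highest in Kmt2a+/+, and the next gene, Rcor3, reached 1.33 times. The number of genes with this order depended on the scale, at 67 when counts were scaled to library totals with no TMM and 39 with DESeq2 size factors, and Nek7 was among them on both scales.

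Comparisons among the other 3 genotypes leave out the Kmt2a+/+ libraries that chose Nek7, although the pick did require these 9 libraries to be high. Nek7 was higher in Nes-Cre+/- Kmt2a+/LSL than in Kmt2a+/LSL by 0.74 (SE 0.19) on the log2 scale, and the libraries did not overlap. The edgeR quasi-likelihood test gave an unadjusted p of 0.00275 and an adjusted p of 1 over all genes, so the difference did not pass, nor did it with DESeq2 (adjusted p = 0.291) or limma-voom (adjusted p = 1.00). It passed only with the empirical null (adjusted p = 7.8e-12), which rescales the DESeq2 statistics to their central 75% and called 5.53% of all genes in this comparison. Leaving out each library in turn gave log2 differences of 0.58 to 0.87.

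Against Kmt2a+/LSL, the Nek7 level in Nes-Cre+/- Kmt2a+/+ differed by 0.36 (SE 0.19, unadjusted p = 0.0848, adjusted p = 1, edgeR), and the lowest Nes-Cre+/- Kmt2a+/+ library (530.7) was just above the highest Kmt2a+/LSL library (501.7). Nes-Cre+/- Kmt2a+/LSL differed from Nes-Cre+/- Kmt2a+/+ by 0.37 (SE 0.19, unadjusted p = 0.0780, adjusted p = 1, edgeR), with libraries that overlapped. Both passed only with the empirical null, at adjusted p = 0.000694 and adjusted p = 0.0315. By mean level, Kmt2a+/+ came first (lowest), then Kmt2a+/LSL, then Nes-Cre+/- Kmt2a+/+ and last Nes-Cre+/- Kmt2a+/LSL, and no pair among the last 3 was separated by the edgeR test. With 3 libraries against 3, the exact permutation test on a single gene cannot give a p below 0.1.

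Of Nek7's 31-base words, 2.41% also occur in transcripts of other genes, with Vmn1r218 the gene that shares the most. Another 3 annotated genes overlap the body of Nek7 (Gm28501, Gm37080 and Gm37101), and were not analysed here. The sources used here do not say whether strand was used in counting, so RNA from an antisense gene in the Nek7 body could not be told apart from Nek7.

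Nek6, the closest relative of Nek7, did not share its pattern. Its normalised counts were 1558, 1073 and 1243 for Kmt2a+/+, 1356, 952.5 and 1003 for Kmt2a+/LSL, 1039, 1150 and 1099 for Nes-Cre+/- Kmt2a+/+, and 1157, 852.5 and 1022 for Nes-Cre+/- Kmt2a+/LSL. The groups overlapped in every pair. Means were 1291 ± 246, 1104 ± 220, 1096 ± 55.7 and 1011 ± 153, so that the mean was highest where Nek7 was lowest. The log2 differences from Kmt2a+/+ were -0.23 (SE 0.20), -0.24 (SE 0.20) and -0.35 (SE 0.20), and -0.07, -0.09 and -0.21 without Kmt2a+/+ replicate 1. The largest of the 6 differences between genotypes was 0.35 in size, and none passed. Nek6 lies at chr2:38511643-38594606, plus strand, and shares 3.49% of its 31-base words with other genes, Psmb7 sharing the most.

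Nek9, the kinase upstream of both, was the steadiest of the 10 genes relative to its level. The Kmt2a+/+ libraries held 3813, 5251 and 4854, the Kmt2a+/LSL libraries 4557, 4856 and 4758, the Nes-Cre+/- Kmt2a+/+ libraries 4492, 4610 and 5236, and the Nes-Cre+/- Kmt2a+/LSL libraries 3913, 4745 and 4932. Its highest library was 1.38 times its lowest, against 1.83 times for Nek6 and 5.11 times for Nek7. None of its 6 log2 differences exceeded 0.08 in size, with an SE of 0.16, and without Kmt2a+/+ replicate 1 the differences from Kmt2a+/+ were -0.10, -0.08 and -0.17. Nek9 lies at chr12:85299514-85339362, minus strand.

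Levels of the 3 kinases were compared per length. Per kilobase of the longest annotated transcript, Nek9 stood at 35.9 ± 5.75 CPM (counts scaled to the library size) in Kmt2a+/+, Nek6 at 5.21 ± 0.99 and Nek7 at 1.52 ± 0.08. In Nes-Cre+/- Kmt2a+/LSL the levels per kilobase were 35.1 ± 4.20, 4.08 ± 0.62 and 6.02 ± 1.22. Over the 9 libraries outside Kmt2a+/+, the Nek7 level per length was 0.134 ± 0.046 of the Nek9 level and 1.12 ± 0.30 of the Nek6 level. The order of Nek6 and Nek7 depended on the length chosen. The longest Nek6 transcript has 10338 bases and the median of its coding transcripts has 1513, and with median coding lengths the ratio of Nek7 to Nek6 was 0.198 ± 0.054. Nek9 was above Nek6 in all 12 libraries by the longest transcript. With median coding lengths, Nek6 was above Nek9 in 3 of the 12 libraries, and the means in Kmt2a+/+ were nearly the same (35.6 ± 6.77 for Nek6 and 35.9 ± 5.75 for Nek9, CPM per kilobase).

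For the 9 genes other than Nek7, no difference between genotypes passed in any test run. In the edgeR test of any difference among the 4 genotypes, unadjusted p-values lay between 0.293 and 0.966, and 0 of the 9 passed after adjustment, beside 0% of all genes (1.15% at an unadjusted p under 0.05, 0.0293% with DESeq2, 0.0117% with limma-voom). In this test of the 4 genotypes, the lowest adjusted p over the 9 genes and all alternatives was 0.829, reached without Kmt2a+/+ replicate 1 (edgeR). In the pairs it was 0.0989, for Atp6v1g3 in Nes-Cre+/- Kmt2a+/+ against Kmt2a+/LSL with the empirical null. Of their 54 comparisons between pairs of genotypes, 0 passed with edgeR, 0 with DESeq2, 0 with limma-voom and 0 with the empirical null, and 0 had an unadjusted p under 0.05 with edgeR. Over all genes, an unadjusted p under 0.05 with edgeR was found for 1.79% for Kmt2a+/LSL against Kmt2a+/+, 1.4% for Nes-Cre+/- Kmt2a+/+ against Kmt2a+/+, 1.85% for Nes-Cre+/- Kmt2a+/LSL against Kmt2a+/+, 1.61% for Nes-Cre+/- Kmt2a+/LSL against Kmt2a+/LSL, 1.02% for Nes-Cre+/- Kmt2a+/+ against Kmt2a+/LSL and 1.11% for Nes-Cre+/- Kmt2a+/LSL against Nes-Cre+/- Kmt2a+/+. In the same order, the empirical null called 0.187%, 0.041%, 0.75%, 5.53%, 6.31% and 1.53% of all genes. DESeq2 called 0.041%, 0.0176%, 0.0293%, 0.041%, 0.0176% and 0.0176%. For limma-voom the shares were 0.0117%, 0%, 0%, 0.0117%, 0.0234% and 0%. After adjustment edgeR called 0.00586% of all genes, which is 1 gene, in Nes-Cre+/- Kmt2a+/LSL against Kmt2a+/+ and in Nes-Cre+/- Kmt2a+/+ against Kmt2a+/LSL, and 0% in the other pairs. In these 54 comparisons the background itself is low, so 0 passing is close to the share over all genes.

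Without Kmt2a+/+ replicate 1, 7 of the 54 comparisons had an unadjusted p under 0.05 with edgeR, in 4 genes and all against Kmt2a+/+, and 0 passed after adjustment. They were Zbtb41 and Dennd1b in Kmt2a+/LSL, Zbtb41 and Atp6v1g3 in Nes-Cre+/- Kmt2a+/+, and Zbtb41, Dennd1b and Lhx9 in Nes-Cre+/- Kmt2a+/LSL. Each time the level was above Kmt2a+/+. The 54 also hold the pairs with no Kmt2a+/+ library, which gave none, so 7 of 54 understates the share against Kmt2a+/+. The lowest of these unadjusted p-values was 0.00639 (adjusted p = 0.304, edgeR), for Zbtb41 in Nes-Cre+/- Kmt2a+/LSL. The share of all genes with such a p also rose without this library, to 8.95% for Kmt2a+/LSL, 6.09% for Nes-Cre+/- Kmt2a+/+ and 14.8% for Nes-Cre+/- Kmt2a+/LSL, each against Kmt2a+/+. In the pairs with no Kmt2a+/+ library it was 3.89% for Nes-Cre+/- Kmt2a+/LSL against Kmt2a+/LSL, 2.03% for Nes-Cre+/- Kmt2a+/+ against Kmt2a+/LSL and 3.23% between the Nes-Cre+/- genotypes.

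In 4 of the 54 comparisons the libraries of the pair did not overlap, each time with the first genotype higher. They were Atp6v1g3 in Nes-Cre+/- Kmt2a+/+ against Kmt2a+/+ and against Kmt2a+/LSL, and Lhx9 in both Nes-Cre+/- genotypes against Kmt2a+/LSL. Over all genes, non-overlapping libraries were found for 4.05%, 4.35%, 3.62%, 7.1%, 7.95% and 6.68% of genes in the 6 pairs (in the order above). The smallest unadjusted p of the 54 was 0.0680, for Atp6v1g3 in Nes-Cre+/- Kmt2a+/+ against Kmt2a+/+.

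The neighbors are described from the Ptprc side of Nek7 to the Aspm side. Ptprc, which encodes the leukocyte marker CD45, lies 307.2 kb from Nek7 at chr1:138062861-138175708, minus strand. It was close to absent, with raw counts of 6, 5 and 0 for Kmt2a+/+, 2, 9 and 1 for Kmt2a+/LSL, 1, 3 and 5 for Nes-Cre+/- Kmt2a+/+, and 0, 2 and 6 for Nes-Cre+/- Kmt2a+/LSL. A count of 0 in a library of this depth allows up to 3 counts, and the fitted differences of Ptprc had SEs of 1.28 to 1.32 on the log2 scale, too wide to show a difference at this depth. Several other microglia and macrophage genes also had few counts. Aif1, Tmem119 and Laptm5 had at most 3 counts and Csf1r at most 7 in any library. Of the 14 genes of that list analysed here, 10 had counts, with a summed level of 67.1 to 115 normalised counts in the 12 libraries. Cd68, a lysosomal protein of macrophages, had 31.4 to 56.5 normalised counts.

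Atp6v1g3, a G subunit of the proton-pumping V-ATPase best known from kidney, lies 193.4 kb from Nek7 at chr1:138273738-138289462, plus strand, the nearest measured gene. Its values were 38.5, 18.1 and 21.4 for Kmt2a+/+, 39.5, 39.9 and 26.8 for Kmt2a+/LSL, 51.6, 44.0 and 60.0 for Nes-Cre+/- Kmt2a+/+, and 13.1, 55.6 and 50.2 for Nes-Cre+/- Kmt2a+/LSL. The 3 Nes-Cre+/- Kmt2a+/+ libraries were above all 6 libraries without Cre, and the lowest value of all was Nes-Cre+/- Kmt2a+/LSL replicate 1. Means were 26.0 ± 10.9, 35.4 ± 7.43, 51.9 ± 7.96 and 39.7 ± 23.1. The log2 differences from Kmt2a+/+ were 0.46, 1.01 and 0.63 (SE 0.50 each) in the order of the values above, and 0.84, 1.38 and 0.99 without Kmt2a+/+ replicate 1. From Kmt2a+/LSL, Nes-Cre+/- Kmt2a+/+ differed by 0.55 (SE 0.49, unadjusted p = 0.287, adjusted p = 1, edgeR).

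Lhx9, a LIM homeobox factor of the developing forebrain and gonad, begins 205.0 kb on the other side of Nek7 (chr1:138825186-138848577, minus strand). It held 176.7, 78.1 and 50.2 for Kmt2a+/+, 79.0, 81.7 and 65.0 for Kmt2a+/LSL, 89.6, 95.3 and 97.1 for Nes-Cre+/- Kmt2a+/+, and 138.4, 82.6 and 86.3 for Nes-Cre+/- Kmt2a+/LSL. Kmt2a+/+ spanned the whole range of the gene, from its lowest library to its highest. Kmt2a+/LSL was below both Nes-Cre+/- genotypes without overlap, by 0.44 (SE 0.41) against Nes-Cre+/- Kmt2a+/LSL and 0.32 (SE 0.41) against Nes-Cre+/- Kmt2a+/+, although 82.6 and 81.7 at the boundary of the former are nearly the same value. Its log2 differences from Kmt2a+/+ were -0.42, -0.10 and 0.02, and they turned to 0.24, 0.55 and 0.67 without Kmt2a+/+ replicate 1.

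Dennd1b, an exchange factor for Rab35 in endocytic traffic, lies 343.3 kb from Nek7 at chr1:138963435-139178960, plus strand. Its libraries held 1546, 652 and 598 for Kmt2a+/+, 866, 937 and 905 for Kmt2a+/LSL, 796, 703 and 879 for Nes-Cre+/- Kmt2a+/+, and 1214, 812 and 777 for Nes-Cre+/- Kmt2a+/LSL. Kmt2a+/+ held the highest library and both of the lowest. The log2 differences from Kmt2a+/+ of -0.04, -0.23 and 0.01 (SE 0.33 each) became 0.53, 0.34 and 0.57 without Kmt2a+/+ replicate 1. Of its 31-base words, 5.54% occur in other genes, and Gm16304, which lies inside it and had almost no counts, shares the most.

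Crb1, an apical polarity protein of retina and neuroepithelium, lies 576.9 kb from Nek7 at chr1:139197056-139377100, minus strand. It ranged from 88.1 to 152.7 over the 12 libraries, the narrowest relative range of the neighbors. Means were 113 ± 22.9, 121 ± 21.5, 103 ± 12.9 and 119 ± 29.3 for the genotypes in the order used for Lhx9, and every pair of groups overlapped. The log2 differences from Kmt2a+/+ were 0.10, -0.14 and 0.07 (SE 0.27 each), and 0.04, -0.19 and 0.01 without Kmt2a+/+ replicate 1.

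Zbtb41, a zinc finger gene, lies 802.1 kb from Nek7 at chr1:139422288-139453005, plus strand. It held 2585, 1565 and 899 for Kmt2a+/+, 2291, 2248 and 1817 for Kmt2a+/LSL, 1878, 2360 and 2169 for Nes-Cre+/- Kmt2a+/+, and 2874, 1804 and 1970 for Nes-Cre+/- Kmt2a+/LSL. It was the neighbor whose profile over the 12 libraries was closest to that of Nek7, since 2 of its Kmt2a+/+ libraries were the lowest of all 12, yet Kmt2a+/+ replicate 1 was the second highest. Its log2 differences from Kmt2a+/+ were 0.33, 0.34 and 0.40 (SE 0.32 each), and 0.79, 0.79 and 0.84 without Kmt2a+/+ replicate 1. None passed.

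Aspm, a spindle pole protein that is mutated in primary microcephaly, starts right after Zbtb41, 834.6 kb from Nek7 (chr1:139454772-139494091, plus strand). It had the widest ratio of highest to lowest library of the 10 genes, Ptprc aside, with 7872, 1408 and 3084 for Kmt2a+/+, 4993, 3193 and 2972 for Kmt2a+/LSL, 3900, 3355 and 2457 for Nes-Cre+/- Kmt2a+/+, and 3882, 2926 and 3471 for Nes-Cre+/- Kmt2a+/LSL. Its highest and lowest libraries, 5.59-fold apart, were both Kmt2a+/+. Its log2 differences from Kmt2a+/+ were -0.15, -0.35 and -0.27 (SE 0.48 each), and turned to 0.73, 0.52 and 0.60 without Kmt2a+/+ replicate 1.

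Other genes of mitosis varied between the libraries alongside Aspm. Relative to its mean over the 12 libraries, Aspm stood at 1.23, -1.25 and -0.12 (log2 CPM) in the 3 Kmt2a+/+ libraries, and the median of a list of 20 mitosis genes stood at 1.27, -1.26 and 0.00. Of the 20, 14 were highest for Kmt2a+/+ replicate 1, and 20 were lowest for Kmt2a+/+ replicate 2. Mki67 ranged from 4927 to 34232 normalised counts, Top2a from 4474 to 27477 and Cenpf from 1824 to 12700. Nek7, which was picked for low counts in these 3 libraries, stood at -1.13, -1.18 and -1.28 in them. Whether its level is tied to that of the mitosis genes was not tested.

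**Figure D2:**
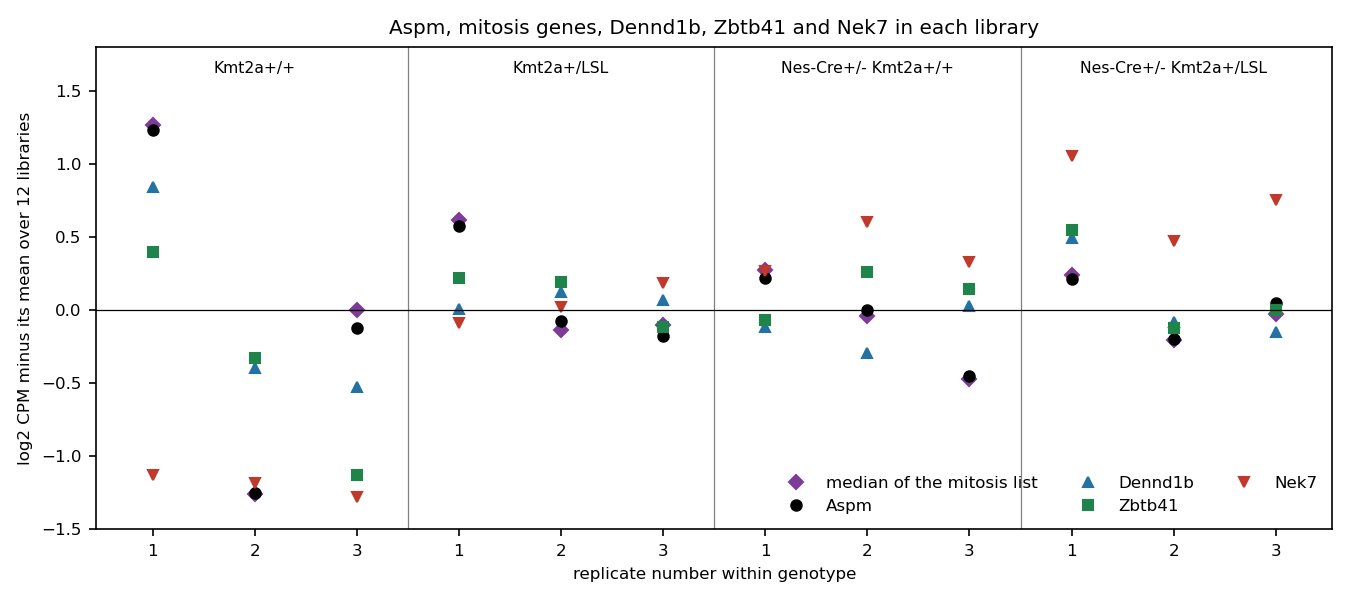
Log2 CPM minus its mean over the 12 libraries (y axis) for Aspm, Dennd1b, Zbtb41 and Nek7, and the median of the same quantity over 20 mitosis genes, in each library (x axis, grouped by genotype). Aspm and the mitosis list lie together, from 1.23 and 1.27 in Kmt2a+/+ replicate 1 to -1.25 and -1.26 in replicate 2. Nek7, picked for its low counts in Kmt2a+/+, lies between -1.13 and -1.28 in all 3 Kmt2a+/+ libraries.

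Around Nek7, 89 other genes are annotated within 2 Mb on either side, 17 of them protein-coding, and 16 had counts in the deposited file. These are the 7 neighbors and 9 further genes, among them Zfp281 (1172 to 2753 normalised counts), 2310009B15Rik (97.8 to 214) and Kcnt2 (14.0 to 84.1). A total of 14 were tested. In none of the 14 did the Kmt2a+/+ libraries lie apart from the other 9, as they did for Nek7 and for 0.281% of all genes below the other 9. Their median log2 differences from Kmt2a+/+ were -0.11 for Kmt2a+/LSL, -0.12 for Nes-Cre+/- Kmt2a+/+ and 0.03 for Nes-Cre+/- Kmt2a+/LSL, beside medians over all genes of 0 to 0.0143 across the 6 pairs. These medians rested on Kmt2a+/+ replicate 1. Without it they were 0.63, 0.44 and 0.63, with 11, 11 and 13 of the 14 genes above 0, while the medians over all genes lay between -0.00871 and 0.00171 across the 6 pairs. Of the 14, F13b and Nr5a2 had an unadjusted p under 0.05 in any pair (edgeR), with mean counts of 1.67 and 6.17, and none passed after adjustment (these names were chosen after their values were seen). Over all genes, 5.72% had such a p in any of the 6 pairs. Without Kmt2a+/+ replicate 1 there were 6 of the 14, the 4 neighbors named above with F13b and Nr5a2, and 22.8% over all genes, and 0 passed after adjustment.

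**Figure D3:**
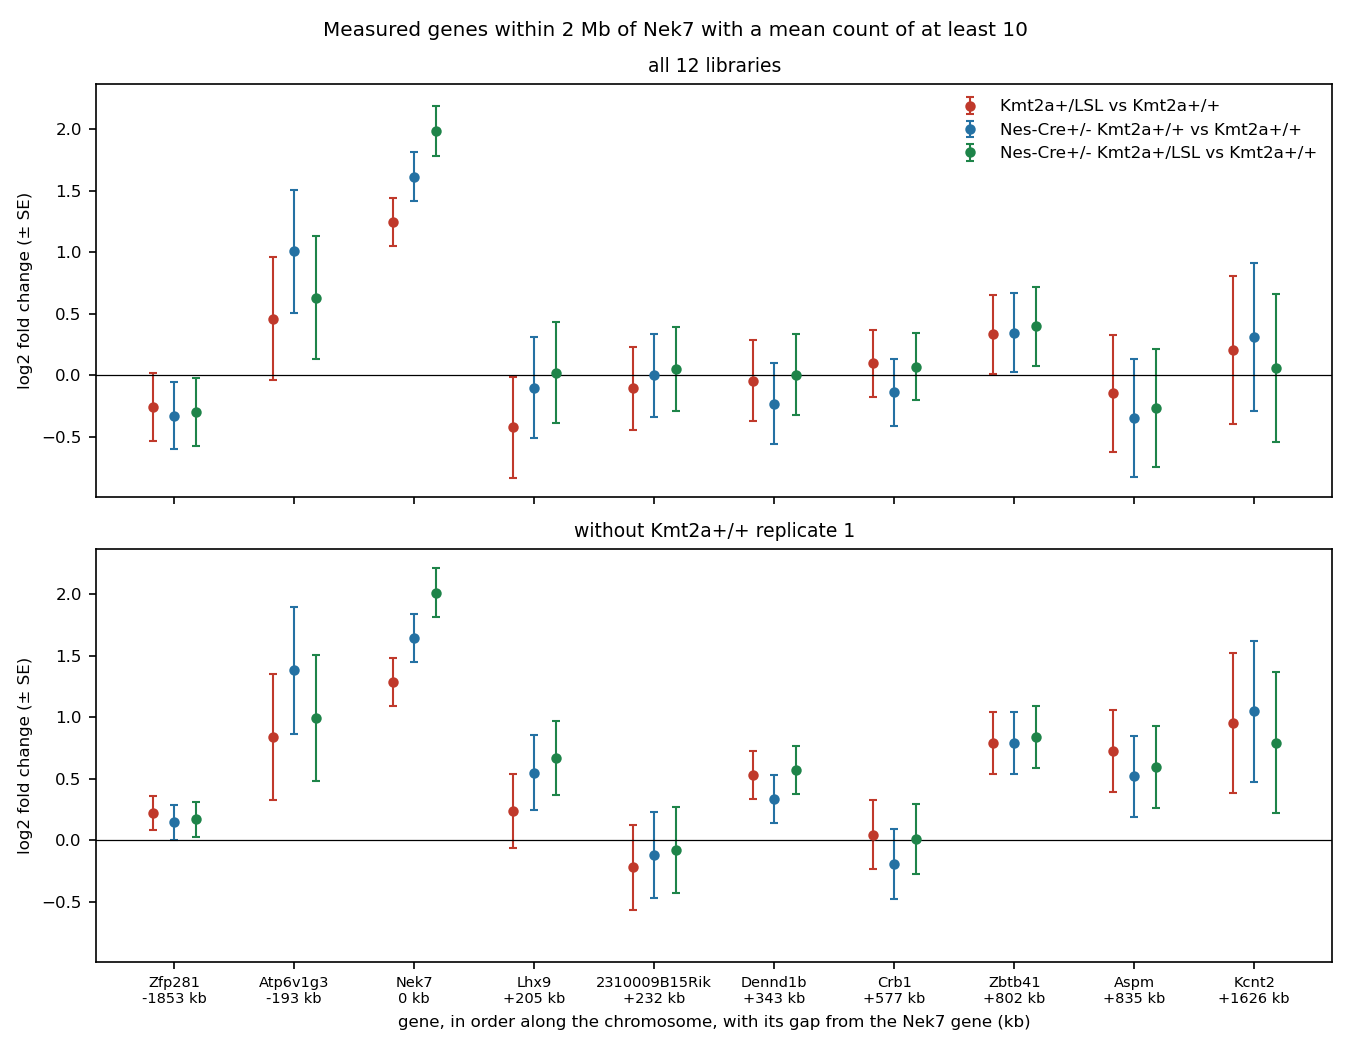
Log2 fold change against Kmt2a+/+ with its SE (y axis) in the other 3 genotypes for Nek7 and the measured genes within 2 Mb of it that had a mean count of at least 10, in their order along chromosome 1 (x axis, with the gap from Nek7 in kb), from all 12 libraries (top) and without Kmt2a+/+ replicate 1 (bottom). Nek7 lies at 1.25 to 1.99 in the top panel and 1.28 to 2.01 in the bottom one, while the other 9 genes lie between -0.42 and 1.01 and between -0.22 and 1.38, with Atp6v1g3 the highest of them, and all 3 sets of points share the same Kmt2a+/+ libraries.

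The genes with profiles closest to Nek7 lay elsewhere. Closeness was the root mean square difference of log2 CPM, each gene relative to its own mean, over the 12 libraries, for 11676 genes with a mean count of at least 50. It is a description, since the genotype pattern that chose Nek7 also sets it. Rcor3, a corepressor of the CoREST family on chromosome 1, was closest at 0.42, followed by Tfcp2l1, a transcription factor also on chromosome 1, at 0.47, Epb41l2, a cytoskeletal protein on chromosome 10, at 0.48, Pmaip1, which encodes the apoptosis protein NOXA, at 0.49, and Tbl1xr1, a corepressor subunit on chromosome 3, at 0.50. The median over genes was 0.81, and a gene with the same level in every library would stand at 0.75. Rcor3 and Tfcp2l1 are outside the 2 Mb around Nek7. Zbtb41 was at 0.63 (rank 70), Nek9 at 0.78 (rank 3793), Nek6 at 0.88 (rank 9150), and Aspm ranked 9932.

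In Rcor3 the Kmt2a+/+ libraries held 92.6, 97.1 and 69.1 normalised counts, and the other 9 lay between 129.0 and 196.8. Tfcp2l1 held 28.5, 41.0 and 40.3 in Kmt2a+/+ and 47.7 to 79.0 elsewhere. Epb41l2 held 156.8, 231.4 and 346.2 in Kmt2a+/+. In 4 of the 5 genes, all but Rcor3, the lowest library was Kmt2a+/+ replicate 1, the library that stood apart. Its values were 98.3 for Pmaip1 and 437 for Tbl1xr1, against 182 and 1014 in the next library. For each of the 5 genes, Kmt2a+/+ lay below the other 9, with gaps smaller than that of Nek7.

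**Figure D4:**
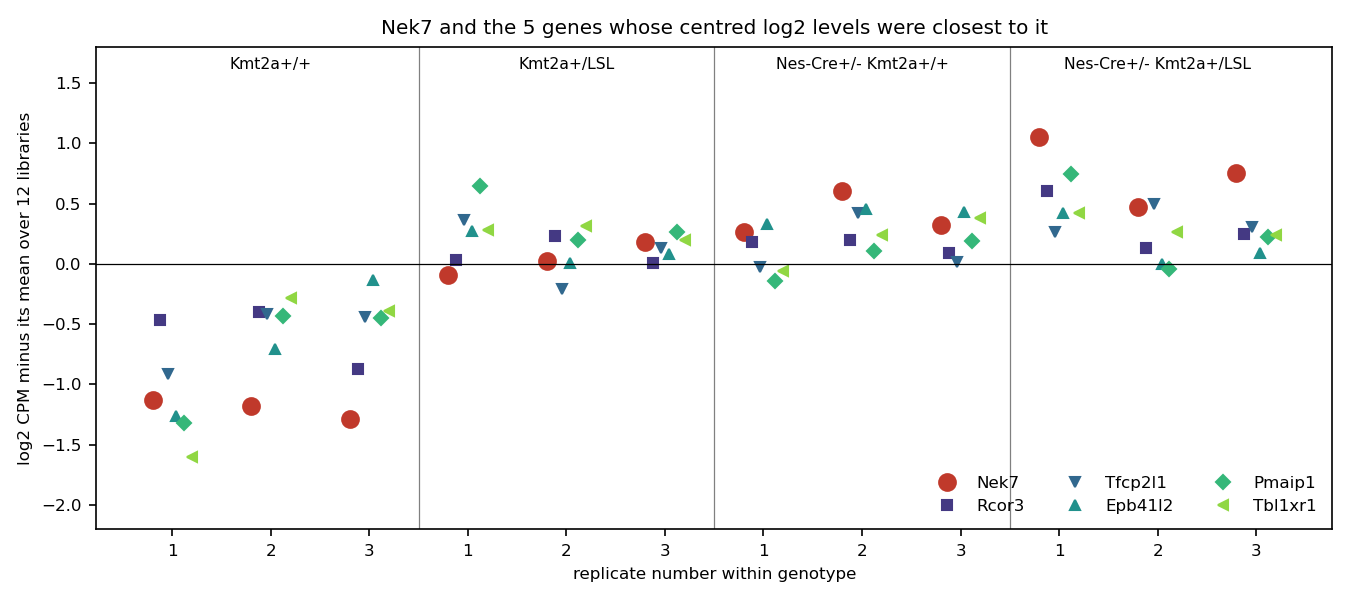
Log2 CPM minus its mean over the 12 libraries (y axis) for Nek7 and the 5 genes closest to it, in each library (x axis, grouped by genotype). All 6 genes are lowest in Kmt2a+/+, and Nek7 is the one with little spread among the Kmt2a+/+ libraries (-1.13 to -1.28).

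Genes that work with the members were counted from lists, over the same 6 pairs of genotypes. In all of these lists 0 genes passed after adjustment with edgeR and 0 with DESeq2. The counts that follow stand beside 1.02% to 1.85% of all genes per pair at an unadjusted p under 0.05. All calls of the empirical null in these lists fell in the 3 pairs with no Kmt2a+/+ library, where it called 5.53%, 6.31% and 1.53% of all genes. Of the other NEK kinases, 7 of 8 were tested, and 0 of 42 comparisons had an unadjusted p under 0.05 with or without Kmt2a+/+ replicate 1. The empirical null called 1. Nek1 was at 939 ± 573 for Kmt2a+/+ (611 without replicate 1) and 715 ± 63.5 to 744 ± 45.3 elsewhere. Nek8 was at 666 ± 387 for Kmt2a+/+ (880.0 without replicate 1) and Nek2 at 341 ± 162 (293 without it). The 13 measured mitotic partners of NEK9, NEK6 and NEK7 had 2 of 78 comparisons with an unadjusted p under 0.05, both for Dynll1, a dynein light chain that binds NEK9. Dynll1 was at 4549 ± 3099 for Kmt2a+/+, 2545 ± 259 for Kmt2a+/LSL and 2560 ± 328 for Nes-Cre+/- Kmt2a+/+. The Kmt2a+/+ mean rested on replicate 1, at 8095, and the other 2 libraries held 2361 and 3190 (mean 2776). Without replicate 1 the log2 differences of -0.84 and -0.83 became -0.13 and -0.12, and neither had an unadjusted p under 0.05. In this list 8 of 78 comparisons then had such a p, for Kif11, Nedd1 and Nup98, named for these values, beside 2.03% to 14.8% of all genes per pair. Tpx2 and Ccnb1 had SDs in Kmt2a+/+ of 4269 and 2961 around means of 5082 and 4340, and means of 2686 and 2792 without replicate 1.

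The inflammasome in which NEK7 acts in macrophages was close to absent at its sensor. Nlrp3 had at most 3 counts in any library. Of the 9 inflammasome genes with counts, P2rx7, an ATP-gated channel, had 1246 to 1709 normalised counts, Il18 had 36.0 to 476 and Nlrc4 had 19.7 to 64.1. In this list 1 of 48 comparisons had an unadjusted p under 0.05, for Aim2, with at most 11 counts (0 of 48 without Kmt2a+/+ replicate 1), and the empirical null called 0.

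Relatives of the neighbors were counted in the same way. Among 11 tested V-ATPase V1 subunits, 0 of 66 comparisons had an unadjusted p under 0.05 and the empirical null called 0. Of the other G subunits, Atp6v1g1 had 1882 to 2653 normalised counts and Atp6v1g2 had 248 to 424. Among 9 LIM homeobox relatives and cofactors of Lhx9, 1 of 54 had an unadjusted p under 0.05, for Lmx1a, while Ldb1 had 1673 to 5574 normalised counts and Lhx2 had 1486 to 3673. The 13 measured genes of the Crumbs complex gave 1 of 78, for Lin7b, beside 4 called by the empirical null. The 14 primary microcephaly and spindle pole genes gave 0 of 84 (2 by the empirical null), with Cdk5rap2 at 4859 to 6532, and the mitosis list gave 0 of 120 (0 by the empirical null). Aim2, Lmx1a and Lin7b are named because of these values. Without Kmt2a+/+ replicate 1 the counts at an unadjusted p under 0.05 were 3 of 66 for the V1 subunits, 2 of 54 for the LIM homeobox list (none of them Lmx1a), 10 of 78 for the Crumbs complex, 9 of 84 for the microcephaly and spindle pole genes and 8 of 120 for the mitosis list, and 0 passed after adjustment. In the cell type marker lists, an unadjusted p under 0.05 was found in 0 of 66 comparisons for neural stem cells, 0 of 54 for neurons, 1 of 42 for astrocytes, 2 of 48 for the oligodendrocyte lineage, 2 of 48 for microglia and 0 of 48 for endothelial, mural and meningeal cells, and the empirical null called 0, 3, 4, 2, 3 and 0. Without Kmt2a+/+ replicate 1 the counts for these 6 lists were 2, 5, 6, 3, 2 and 0 in the same order, beside the higher shares of all genes given above.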

How the data were processed

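The libraries are poly(A) RNA-Seq of mNPCs. The authors pseudoaligned reads to the mouse transcriptome (mm10/GRCm38) with kallisto 0.48.0 and summed transcripts per gene with tximport, and the deposited table holds the estimated count of each gene as a whole number, not normalised. Such sums divide reads shared by related transcripts. All 12 columns were used, and sample labels gave the genotypes. GENCODE M21 gave symbols for 18718 of 18911 genes (99.0%).

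The 17076 genes whose counts summed to more than 10 and were above 0 in at least 2 libraries were normalised with TMM and tested with the quasi-likelihood F-test of edgeR 4.0.16 (R 4.3.3) on all 12 libraries, two-sided, with Benjamini-Hochberg adjustment over all genes. The biological coefficient of variation was 0.368. Alternatives were DESeq2 1.42.0, its empirical null, limma-voom (limma 3.58.1), size factors, filters, a replicate block, 9 libraries and leaving out each library. Log2 CPM used a prior count of 2. Floors cover counting error only. No replicates agreed within sampling noise. The members, lists and tests were chosen with earlier results of these data known. Named list genes are those called and up to 3 of the highest mean count per list. Others (Nlrp3, the V-ATPase G subunits, microglia genes with few counts and those said to be named for their values) were named after their values were seen. Nes, Sox2 and Mbp were also named outside this rule. A further gene of a marker list is not reported here. Tested on simulated data for Kmt2a+/LSL against Kmt2a+/+ (200 genes changed 3-fold, per-gene dispersion, 16806 genes), edgeR recovered 53.5%, with 5 false calls among 112, limma-voom 53.5% (4 among 111), DESeq2 79% (46 among 204) and the empirical null 86% (89 among 261). The simulated libraries held none that stood apart as Kmt2a+/+ replicate 1 did, so these rates may not hold for the data.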

Additional observations from a re-analysis of the deposited data

How the results depend on the processing

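The log2 fold changes of the 10 genes in the 6 pairs of genotypes gave 1104 recomputed values, of which 1089 stayed within 1 SD of the reported value and 15 moved further. A sign changed in 94 of them, in 38 of the 60 fold changes and in none of Nek7, and the largest reported value among those was 0.57 in size. Counts of genes called over all genes depended on the tool. For any difference among the 4 genotypes, edgeR called 0 genes, DESeq2 5 and limma-voom 2. In the pairs, DESeq2 called 7 genes in Kmt2a+/LSL against Kmt2a+/+, 3 in Nes-Cre+/- Kmt2a+/+ against Kmt2a+/+, 5 in Nes-Cre+/- Kmt2a+/LSL against Kmt2a+/+, 7 in Nes-Cre+/- Kmt2a+/LSL against Kmt2a+/LSL, 3 in Nes-Cre+/- Kmt2a+/+ against Kmt2a+/LSL, with 3 in Nes-Cre+/- Kmt2a+/LSL against Nes-Cre+/- Kmt2a+/+. In the same order the empirical null called 32, 7, 128, 945, 1077 and 261, and limma-voom 2, 0, 0, 2, 4 and 0, where edgeR called 0, 0, 1, 0, 1 and 0. The cause was not tested. The 1 gene called by edgeR in Nes-Cre+/- Kmt2a+/+ against Kmt2a+/LSL was 0 with DESeq2 size factors and 0 with no filter. In Nes-Cre+/- Kmt2a+/LSL against Kmt2a+/+ the 1 gene was Nek7, which was picked on these libraries, so that count is no test of it. The count was 0 in a fit of 9 libraries.

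Leaving out 1 library gave 0 to 3 genes called for any difference, 0 to 2 in Kmt2a+/LSL against Kmt2a+/+, 0 to 0 in Nes-Cre+/- Kmt2a+/+ against Kmt2a+/+, 0 to 1 in Nes-Cre+/- Kmt2a+/LSL against Kmt2a+/+, 0 to 1 in Nes-Cre+/- Kmt2a+/LSL against Kmt2a+/LSL, 0 to 2 in Nes-Cre+/- Kmt2a+/+ against Kmt2a+/LSL, with 0 to 0 in Nes-Cre+/- Kmt2a+/LSL against Nes-Cre+/- Kmt2a+/+. Counts above 1 arose only without Kmt2a+/+ replicate 1. The 1 call in Nes-Cre+/- Kmt2a+/+ against Kmt2a+/LSL was lost (0 genes) without any 1 library other than Kmt2a+/+ replicate 1. Same-numbered libraries deviated together with r from -0.0717 to 0.416 over 18 pairs (mean 0.0844). For different-numbered libraries r ran from -0.363 to 0.288 over 36 pairs (mean -0.0407). The mean was higher for same-numbered libraries, though the ranges overlapped, and no label says that the numbers pair the libraries. They were not taken to do so. A fit with the replicate number as a block called 0 genes in every comparison and left every Nek7 fold change with its sign. The Kmt2a+/+ libraries lay below the other 9 in 48 genes and above them in 30, against 67 and 24 without TMM and 39 and 41 with DESeq2 size factors. The ratio of Nek7 to Nek6 per length, 1.12 by the longest transcript, was 0.826 by the exon union and 0.198 by median coding transcript length, an alternative chosen after seeing the data, and that of Nek7 to Nek9 was 0.134, 0.0952 and 0.162. Depth limits Ptprc above all, with 0 to 9 counts per library.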
